A study of Homo sapiens with 8 samples.

Results

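The 4 libraries described here, of 8 in the series, came from K562 cells, a human erythroleukaemia line, and share a low use of the cryptic acceptor of TMEM14C. They were chosen by that measured value: the junction chr6:10723242-10724555 (plus strand, hg38) held under 30% of the uniquely mapped reads of all junctions from its donor. The rule took both wild type day 4 libraries and, at day 8, the library labelled wild type replicate 1 and the library labelled K700E replicate 1. The series holds SF3B1 wild type and SF3B1 K700E cells with 2 libraries per genotype and day, as total RNA in strand-specific libraries. All 4 groups carried the same doxycycline treatment, 1 µg/ml, which induced the modified allele per the labels' protocols; nothing there says which cells held which construct, whether a line was a clone, or that replicates were separate cultures. The p-values therefore measure only the spread between these libraries, which may be technical. The question is how day 8 differed from day 4. At day 8 the value of the library labelled wild type is given first and that of the library labelled K700E second throughout.

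SF3B1 is the subunit of the U2 snRNP that holds the branch point during recognition of the 3' splice site. Hotspot substitutions such as K700E let the spliceosome use cryptic acceptors a short way upstream of the normal one, and TMEM14C, a mitochondrial protein needed for haem synthesis, is a widely used readout of it. K562 cells are erythroid-like leukaemia cells that make embryonic and fetal globins and can drift towards erythroid or megakaryocytic expression in culture.

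The cryptic acceptor of TMEM14C took 19 of 524 donor reads, or 3.63% (95% Wilson interval 2.33% to 5.59%) in wild type day 4 replicate 1 and 28 of 586 donor reads, or 4.78% (95% Wilson interval 3.33% to 6.82%) in replicate 2. It took 81 of 1941 donor reads, or 4.17% (95% Wilson interval 3.37% to 5.16%) in the library labelled wild type at day 8 and 141 of 1262 donor reads, or 11.2% (95% Wilson interval 9.55% to 13.03%) in the library labelled K700E. The highest of the 4 was thus the library labelled K700E, and the nearest library outside the rule had 56.8%. These values chose the libraries, so they are not tested, and the intervals cover counting error only. Of 27 genes listed as hotspot targets, 16 besides TMEM14C had an acceptor up to 50 nt upstream of the main one that was used at 10% or more in the K700E day 4 libraries, which therefore are high by choice. The median use of these 16 acceptors was 2.40% and 3.19% at day 4 and 1.48% and 3.48% at day 8, against 36.7% and 37.3% in the day 8 libraries labelled wild type replicate 2 and K700E replicate 2. The library labelled K700E replicate 1 at day 8 thus lay near the wild type day 4 libraries at these acceptors, against its label, and it is called by its label only. By gene level SF3B1 itself stood at 755 and 656 CPM at day 4 and 435 and 476 CPM at day 8 (log2 change -0.58, SE 0.18, adjusted p 0.0643), which does not read the K700E base.

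**Figure D1:**
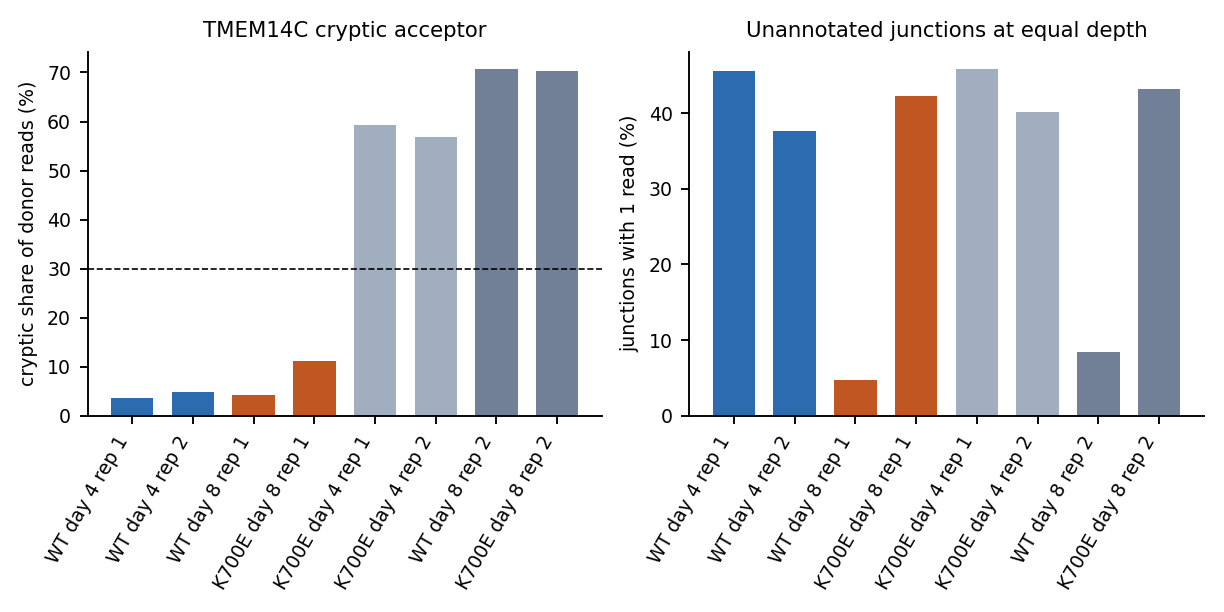
Bars show, for each library, the share of TMEM14C donor reads that used the cryptic acceptor (left, %, dashed line at the 30% that set the choice) and the share of unannotated junctions with 1 read after thinning to equal depth (right, %). The 4 libraries described here are in blue (day 4) and orange (day 8), the others in grey. The library labelled wild type day 8 replicate 1 has 4.73% on the right, against 37.6% to 45.5% in the 3 other coloured bars. The grey bar labelled wild type day 8 replicate 2 has 8.48% there.

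The libraries differed in ways that go with the day or, among these 4, with 1 library. The uniquely mapped spliced reads numbered 60922615 and 73538969 for day 4, and 71039050 and 49338071 for day 8. Among the 4, the library labelled wild type day 8 replicate 1 stood apart. It listed 211347 junctions against 375683 to 424172 in the other 3. It had reads in 13897 genes against 16481 to 16794, and had few junctions seen once. Outside the 4, the library labelled wild type day 8 replicate 2 was low in these too, with the same output folder in its aligner log. It listed 278644 junctions and had reads in 15283 genes. Of its unannotated junctions, 8.48% had 1 read after thinning to equal depth. Within the 4, the output folder in the aligner's log was the same for both day 4 libraries and different for each day 8 library. Day and folder thus cannot be told apart, and at day 8 the folder also goes with the label. The day 8 pair differed from each other more than the day 4 pair did, with a median absolute log2 difference over genes of 0.36 against 0.19, and 9.86% against 1.52% of genes more than 2-fold apart. A label calls the cells epithelial. Gene levels are junction reads summed over a gene's annotated introns, as CPM, each gene's share of the library's gene reads times 1000000, scaled by TMM factors; sums over lists are without that scaling. The erythroid list summed to 5111 and 4619 CPM at day 4 and to 4057 and 3353 at day 8, and GATA1, the erythroid master regulator, stood at 134 and 122 CPM at day 4 and 147 and 129.7 CPM at day 8 (log2 change 0.16, SE 0.18, adjusted p 0.555). The epithelial list summed to 802 and 881 CPM at day 4 and to 1095 and 1255 at day 8, with 1 to 4 of its 10 genes at 0 in a library. Its member KRT8, a keratin of simple epithelia, was at 263 and 325 CPM at day 4 and 386 and 386 CPM at day 8 (adjusted p 0.134). KRT18, its partner keratin, was at 368 and 473 CPM at day 4 and 486 and 713 CPM at day 8 (adjusted p 0.147). In the lymphoid list, with 2 to 7 of 10 genes at 0, PTPRC, the pan-leukocyte phosphatase CD45, stood at 1327 and 1563 CPM at day 4 and 1453 and 765 CPM at day 8 (log2 change -0.33, SE 0.32, adjusted p 0.4799).

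Day 8 differed from day 4 across much of the transcriptome. Of 13803 genes tested by edgeR's quasi-likelihood test, 2988 (21.6%) passed at an adjusted p under 0.05. Of these 1637 (11.9%) were higher at day 8 and 1351 (9.79%) were lower. Without regard to the test, both day 8 libraries lay above both day 4 libraries in 32.5% of the tested genes and below them in 36.3%. The median log2 change of all tested genes was 0.01. A fit that leaves out 1 of the 4 libraries has 1 library in a day and takes its spread from the other day's pair. Fewer genes passed without either day 4 library, and more without either day 8 library. The same held for genes called lower in the mitosis, stress, one-carbon, hypoxia and erythroid lists. Those counts are no support, so the median of a list is given for such fits. Junction counts measure only spliced genes, and fewer cells of a kind cannot be told apart from less RNA per cell.

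The change followed the base composition of the gene. The longest transcript of the genes called higher had a median GC content of 58.5%, those called lower 41.6%, and all tested genes 47.99%. Among genes under 40% GC, 36 of 2299 were called higher and 498 lower, with a median log2 change of -0.50. Among those over 60% GC, 663 of 1872 were called higher and 26 lower, with a median of 0.91. Both day 8 libraries showed it: relative to the day 4 mean, genes over 60% GC stood at a median log2 ratio of 0.57 and 0.84, and genes under 40% at -0.52 and -0.50. Across genes the Spearman correlation of change and GC content was 0.459 over 13803 genes that share the 4 libraries, a description only. The same slope appeared in the 4 other libraries (0.605 over 13386 genes), whose day 4 and day 8 samples are separate but were aligned in the same day-wise folders. Its part in each change below was not tested directly. An alternative added after this was seen removed each library's smooth trend with GC content; it called 577 genes higher (4.18%) and 552 lower (4.00%), 1012 of them shared in direction with the 2988. Counts under this alternative stand beside the gene groups.

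**Figure D2:**
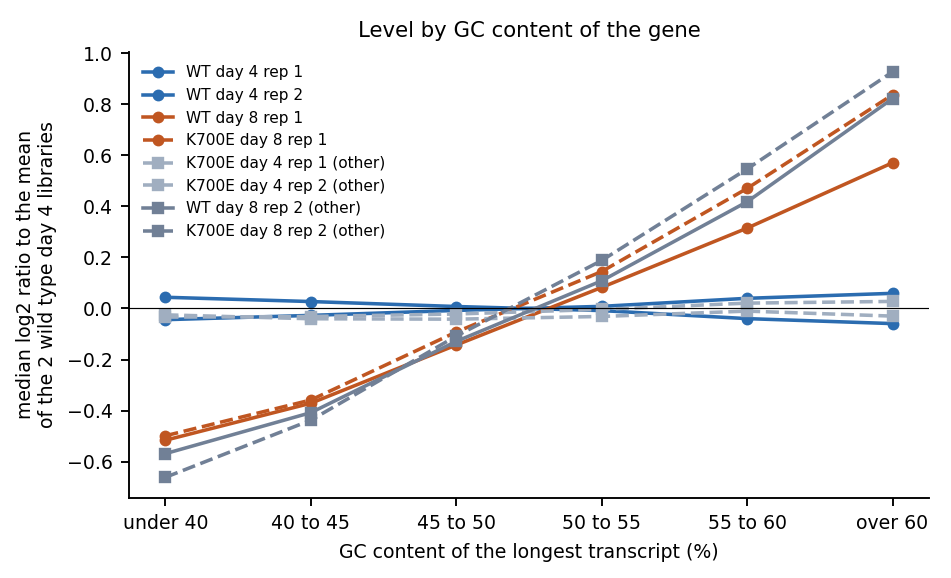
Lines give, for each library, the median log2 ratio of gene level to the mean of the 2 wild type day 4 libraries (y axis) in 6 classes of GC content of the longest transcript (x axis, %). Blue and orange circles are the 4 libraries described here, grey squares the others; dashed lines are libraries labelled K700E. Day 8 lines run from between -0.66 and -0.50 under 40% GC to between 0.57 and 0.93 over 60% GC, and day 4 lines stay within 0.06 of 0.

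Genes of mitosis fell together. Of 28 listed and measured, 23 fell, none rose and 5 did not pass, with a median log2 change of -1.51 against 0.01 over all genes. Of all genes 9.79% fell and 11.9% rose. With the GC trend removed 18 fell (median -1.41), where 4.00% of all genes did. When 1 library was left out the list median ranged from -1.93 to -1.26. The median GC content of the list was 42.9%. DLGAP5, which bundles spindle microtubules near the kinetochores, stood at 202 and 206 CPM at day 4 and 23.8 and 42.9 CPM at day 8 (log2 change -2.57, SE 0.30, adjusted p 0.00975). TTK, the MPS1 kinase of the spindle checkpoint, stood at 262 and 274 CPM at day 4 and 33.5 and 59.7 CPM at day 8 (log2 change -2.48, SE 0.30, adjusted p 0.00975). Both day 8 libraries lay far below both day 4 libraries in each gene, and the library labelled wild type was the lower. KIF20A, a kinesin of cytokinesis, was at 189.7 and 159 CPM at day 4 and 29.3 and 40.5 CPM at day 8 (log2 change -2.28, SE 0.24, adjusted p 0.00949). CENPE, the kinetochore kinesin, was at 282 and 289 CPM at day 4 and 61.7 and 61.5 CPM at day 8 (log2 change -2.16, SE 0.18, adjusted p 0.00933). Cyclin B2 (CCNB2), a partner of CDK1 at entry into mitosis, was at 209.8 and 219 CPM at day 4 and 51.1 and 58.96 CPM at day 8 (log2 change -1.91). In CENPE and CCNB2 the day 8 libraries lay close together. PLK1, the polo-like kinase, is GC-rich (57.1%) and fell as well, from 231 and 181 CPM to 63.6 and 94.9 CPM (log2 change -1.33; -1.76, adjusted p 0.0266 with the GC trend removed). UBE2C, the ubiquitin-conjugating enzyme of the anaphase-promoting complex, is the member with a positive value, at 0.529 and 0.405 CPM at day 4 and 0.153 and 1.03 CPM at day 8, and did not pass.

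Many mitotic promoters carry the same elements, and the list fell as a group. The bases before the start are printed for 4 of these genes that hold both elements marked here. Not all do: CENPE has neither in the 250 bases before its start, and KIF20A has no TTTGAA there. The capitals mark the CCAAT box (CCAAT, or ATTGG on the other strand) and the cell cycle homology region (searched as TTTGAA and its reverse complement TTCAAA), in the 100 bases before the RefSeq start, GRCh38.p14:
CCNB2 (chr15:59105046-59105145, plus strand): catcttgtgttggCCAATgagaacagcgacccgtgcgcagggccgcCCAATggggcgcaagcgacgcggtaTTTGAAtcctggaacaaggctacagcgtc
CDC20 (chr1:43358881-43358980, plus strand): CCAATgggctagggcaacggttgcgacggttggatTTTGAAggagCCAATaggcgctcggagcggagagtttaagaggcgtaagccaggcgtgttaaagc
PLK1 (chr16:23678789-23678888, plus strand): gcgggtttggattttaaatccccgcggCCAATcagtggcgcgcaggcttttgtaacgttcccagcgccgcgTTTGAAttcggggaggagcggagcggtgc
KIF23 (chr15:69414249-69414348, plus strand): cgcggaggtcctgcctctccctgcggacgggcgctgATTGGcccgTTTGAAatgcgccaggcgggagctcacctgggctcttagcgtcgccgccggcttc
CDC20, the activator of the anaphase-promoting complex, had a log2 change of -1.37 (adjusted p 0.0377), and KIF23, a kinesin of the midzone, one of -1.84 (adjusted p 0.00963). In the 250 bases before the start, TTTGAA on either strand was present in 13 of the 23 measured mitosis genes with a RefSeq promoter, and in 8.54% of 10131 promoters of tested genes. CCAAT was present in 20 of the 23 and in 35.4% of the 10131. A match describes the letters only, and the 2 motifs can overlap. The list was made of known genes of mitosis, so these shares follow from how it was made. A link between the motifs and the fall was not tested.

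DNA replication genes did not move as a group. Of 34 measured, 2 rose and 3 fell, with a median of 0.02, where 11.9% of all genes rose and 9.79% fell. With the GC trend removed 1 rose and 2 fell, where 4.18% and 4.00% of all genes did. The lowest was PRIM1, the DNA primase subunit, at 185 and 249.99 CPM at day 4 and 76.4 and 89.1 CPM at day 8 (log2 change -1.34, SE 0.22, adjusted p 0.0142), and the highest E2F1, a transcription factor of S phase genes, at 11.4 and 13.5 CPM at day 4 and 34.9 and 29.4 CPM at day 8 (log2 change 1.42, SE 0.23, adjusted p 0.0144). The E2F1 call is lost with the GC trend removed (0.72, adjusted p 0.135; GC content 62.5%). The difference between this list and the mitosis list was not tested.

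Genes of the unfolded protein and integrated stress responses fell. These pathways raise chaperones of the endoplasmic reticulum and, through the factor ATF4, genes for amino acid supply. Of 21 measured genes 13 fell, none rose and 8 did not pass, where 9.79% of all genes fell and 11.9% rose. The median log2 change was -1.35. With the GC trend removed 11 fell (median -1.61), where 4.00% of all genes did. The median GC content of the list was 47.03%. When 1 library was left out the list median ranged from -1.45 to -1.30. ATF4 itself stood at 139 and 139 CPM at day 4 and 38.1 and 67.4 CPM at day 8 (log2 change -1.35, SE 0.29, adjusted p 0.0251). ATF3, a stress-induced repressor of the same family, stood at 46.1 and 80.7 CPM at day 4 and 7.58 and 5.41 CPM at day 8 (log2 change -3.23, SE 0.36, adjusted p 0.00963). DDIT3, which encodes CHOP, stood at 62.5 and 118 CPM at day 4 and 14.3 and 23.5 CPM at day 8 (log2 change -2.21, SE 0.39, adjusted p 0.0158). In all 3 factors both day 8 libraries lay below the lower day 4 library.

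Among their targets, CHAC1, which degrades glutathione, was at 7.46 and 9.22 CPM at day 4 and 0.791 and 0.273 CPM at day 8 (log2 change -3.89, SE 0.57, adjusted p 0.0119). ASNS, asparagine synthetase, was at 4.55 and 8.22 CPM at day 4 and 0.444 and 0.965 CPM at day 8 (log2 change -3.15, SE 0.56, adjusted p 0.0162). Its pseudogene ASNSP1, whose reads cannot be split from it with certainty, was at 21.9 and 24.97 CPM at day 4 and 0.625 and 2.18 CPM at day 8 (log2 change -4.04). HERPUD1, a factor of protein degradation at the endoplasmic reticulum, was at 155 and 229 CPM at day 4 and 27.5 and 31.3 CPM at day 8 (log2 change -2.66, SE 0.25, adjusted p 0.00949). DDIT4, which restrains mTORC1, was at 95.5 and 89.3 CPM at day 4 and 13.03 and 19.9 CPM at day 8 (log2 change -2.44, SE 0.26, adjusted p 0.00949). Chaperones of the endoplasmic reticulum were the most abundant members. HSP90B1 was at 4540.4 and 5822 CPM at day 4 and 1897 and 1057 CPM at day 8 (log2 change -1.76). HSPA5, which encodes BiP, was at 1809.8 and 3174 CPM at day 4 and 889.7 and 539 CPM at day 8 (log2 change -1.75). In none of these genes did the days overlap. The HSPA5 call is lost with the GC trend removed (-1.62, adjusted p 0.0508). TRIB3, a further ATF4 target, did not pass, at 26.6 and 26.1 CPM at day 4 and 6.86 and 19.5 CPM at day 8: the library labelled wild type was low and the other near the day 4 level.

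The promoters of 4 genes of this list are printed because they hold the amino acid response element, the letters that ATF4 and C/EBP factors bind, searched as TGATGNAA on both strands (capitals). Each run is 100 bases from the 250 before the RefSeq start (GRCh38.p14), ending 130 bases before the start in CHAC1, 1 in ASNS, 112 in ATF3 and 97 in HERPUD1:
CHAC1 (chr15:40953242-40953341, plus strand): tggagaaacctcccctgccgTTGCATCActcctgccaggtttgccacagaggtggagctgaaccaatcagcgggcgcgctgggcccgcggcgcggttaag
ASNS (chr7:97872409-97872508, minus strand): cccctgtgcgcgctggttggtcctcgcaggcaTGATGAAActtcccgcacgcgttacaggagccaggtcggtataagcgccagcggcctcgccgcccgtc
ATF3 (chr1:212565196-212565295, plus strand): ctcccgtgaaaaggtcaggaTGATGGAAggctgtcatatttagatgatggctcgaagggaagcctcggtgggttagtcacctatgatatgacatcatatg
HERPUD1 (chr16:56931946-56932045, plus strand): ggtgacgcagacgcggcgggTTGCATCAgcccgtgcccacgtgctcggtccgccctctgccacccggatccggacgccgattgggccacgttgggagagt
In the 250 bases before the start this motif was present in 4 of the 21 measured genes, all among the 13 called lower. It was present in 149 of 10131 promoters of tested genes (1.47%). The list was made of known genes of these responses, ATF4 targets among them, so its motif share follows from how it was made. A link between the motif and the fall was not tested. No match in the other 17 says only that these letters are not in that window.

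Serine and one-carbon metabolism, which supplies nucleotides and glutathione and has ATF4 among its regulators, fell in part. Of 15 measured genes 8 fell and none rose (median -1.07), where 9.79% of all genes fell and 11.9% rose. Under the GC alternative 7 fell, where 4.00% of all genes did. When 1 library was left out the list median ranged from -1.28 to -0.84. Of the 15, ASNS and PSAT1 also stand in the stress list. SLC7A11, the cystine importer, stood at 93.9 and 85.3 CPM at day 4 and 7.06 and 5.12 CPM at day 8 (log2 change -3.83, SE 0.26, adjusted p 0.00933). MTHFD2, the mitochondrial folate dehydrogenase, stood at 690.1 and 877 CPM at day 4 and 95.6 and 105 CPM at day 8 (log2 change -2.91, SE 0.21, adjusted p 0.00933). In both genes the day 8 libraries were near each other and far from day 4. PSAT1, of serine synthesis, was at 274 and 341 CPM at day 4 and 84.6 and 107 CPM at day 8 (log2 change -1.64). PHGDH, the first enzyme of the path, did not pass by edgeR, at 371 and 438 CPM at day 4 and 193 and 264 CPM at day 8 (adjusted p 0.0503). It passed with DESeq2 (adjusted p 0.00465) and limma voom (adjusted p 0.0348). TYMS, thymidylate synthase, had a positive value that did not pass, at 225 and 217 CPM at day 4 and 281 and 273 CPM at day 8.

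**Figure D3:**
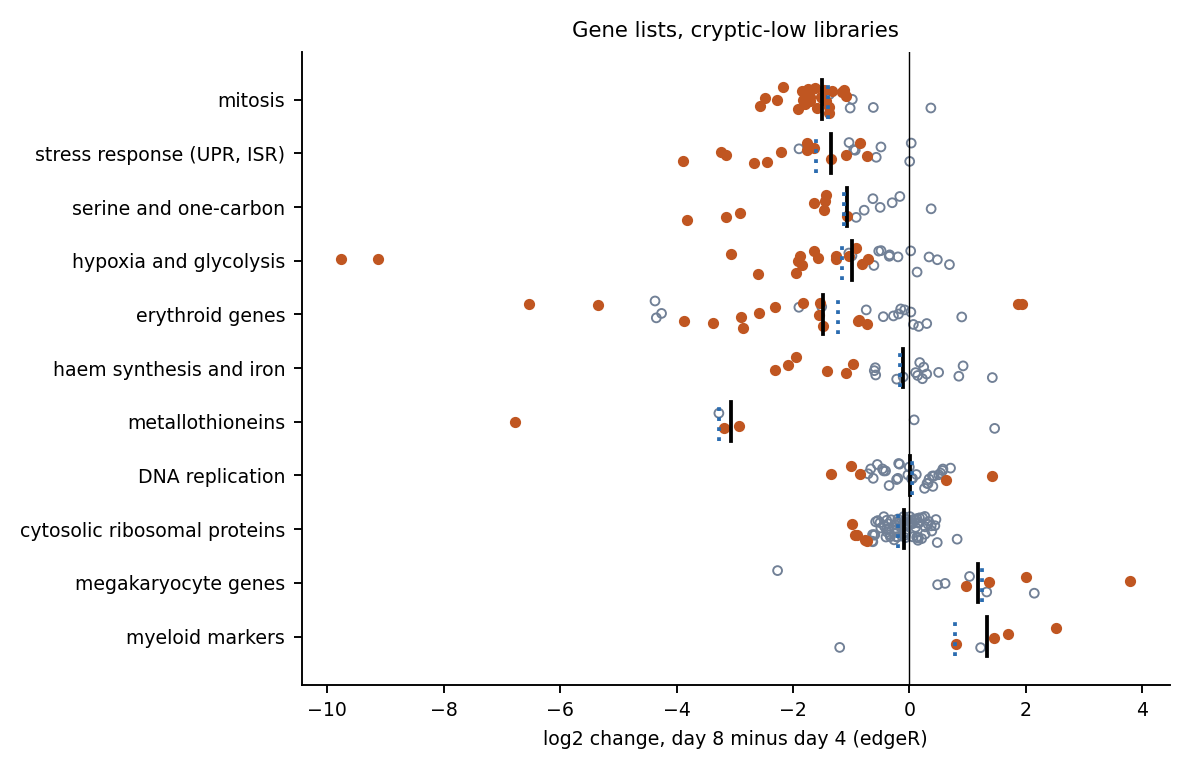
Points are the measured genes of 11 lists, placed by their log2 change from day 4 to day 8 in the 4 libraries (x axis, edgeR); filled orange points passed at an adjusted p under 0.05, open points did not. Black bars are list medians, and blue dotted bars the medians with the GC trend removed. The mitosis, stress, one-carbon, hypoxia, erythroid and metallothionein lists lie to the left of 0 by both. So do the haem (-0.11 and -0.16) and cytosolic ribosomal (-0.10 and -0.20) lists, by less. The 2 leftmost points are CA9 and ADM, with 0 reads at day 8, whose fitted values depend on the prior count and are no bounds.

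Hypoxia and glycolysis genes fell in part. These are targets of hypoxia-inducible factors together with the enzymes of glycolysis. Of 29 measured genes 16 fell and none rose, with a median of -0.99, where 9.79% of all genes fell and 11.9% rose. Under the GC alternative 11 fell, where 4.00% of all genes did. When 1 library was left out the list median ranged from -1.33 to -0.80. CA9, carbonic anhydrase IX, had 2.55 and 1.21 CPM at day 4 and 0 reads in both day 8 libraries, at least 73.1-fold lower when 3 reads over the pair are allowed (48.4-fold from the lower day 4 library alone). ADM, adrenomedullin, had 0.983 and 1.46 CPM and then 0 reads, at least 49.4-fold lower by the same floor. BNIP3, a mitophagy receptor, stood at 109 and 170.3 CPM at day 4 and 14.6 and 17.8 CPM at day 8 (log2 change -3.06, SE 0.28, adjusted p 0.00933). ALDOC, an aldolase, stood at 583 and 550.3 CPM at day 4 and 117 and 63.3 CPM at day 8 (log2 change -2.60, SE 0.32, adjusted p 0.00975). LDHA, lactate dehydrogenase A, was at 2566 and 2922 CPM at day 4 and 997 and 782 CPM at day 8 (log2 change -1.58). VEGFA, the angiogenic growth factor, was at 259 and 212 CPM at day 4 and 82.7 and 63.8 CPM at day 8 (log2 change -1.64). The days did not overlap in any of these. PKM, the pyruvate kinase of most tissues, had a positive value that did not pass, at 1058 and 956 CPM at day 4 and 1800.4 and 1335 CPM at day 8.

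In the 4 other libraries this list had a median log2 change of 0.09, with 3 genes up and 2 down of 29. There 7.99% of all genes rose and 7.87% fell. There LDHA was at 894 and 956 CPM at day 4 and 654 and 679 CPM at day 8, so the day 4 level of the wild type libraries was the highest of the series. No gene of the list passed the test of the difference between the 2 sets of libraries (0 of 29 called; GPI and ALDOA both had an adjusted p of 0.443).

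Erythroid genes changed unevenly. Of 33 measured, 15 fell, 2 rose and 16 did not pass, with a median of -1.49, where 9.79% of all genes fell and 11.9% rose. Under the GC alternative 12 fell and 1 rose, where 4.00% and 4.18% of all genes did. When 1 library was left out the list median ranged from -1.48 to -0.91. The transcription factors GATA1 (given above), TAL1 and KLF1 did not pass. TAL1 stood at 7.54 and 6.57 CPM at day 4 and 6.36 and 5.62 CPM at day 8. KLF1 stood at 14.2 and 8.95 CPM at day 4 and 8.45 and 12.8 CPM at day 8, with overlap between the days. HEMGN (hemogen), a GATA1-regulated gene outside the list, stood at 48.8 and 86.9 CPM at day 4, at 0 reads in the library labelled wild type at day 8 (3 reads would be 0.0416 CPM) and at 0.629 CPM in the other (log2 change -7.88, SE 1.15, adjusted p 0.0119). HBZ, embryonic zeta globin, stood at 31.1 and 25.5 CPM at day 4 and 1.87 and 1.85 CPM at day 8 (log2 change -3.88, SE 0.27, adjusted p 0.00933). HBG1, fetal gamma globin, stood at 356 and 305 CPM at day 4 and 28.01 and 58.6 CPM at day 8 (log2 change -2.89, SE 0.37, adjusted p 0.00975), with reads that near-identical HBG2 can share. HBZ and HBG1 were low in both day 8 libraries. HBG1 did not pass in a fit of all 8 libraries (adjusted p 0.0886), and its days overlapped in the 4 other libraries. HBE1, a further globin, stood at 67.97 and 76.9 CPM at day 4 and 14.8 and 35.3 CPM at day 8. Its log2 change was -1.49 (adjusted p 0.0455), a call lost with the GC trend removed (adjusted p 0.0604). GYPB, a glycophorin of the red cell surface with near-identical copies, was at 39.2 and 71.3 CPM at day 4 and 8.47 and 13.03 CPM at day 8 (log2 change -2.32). ALAS2, the erythroid enzyme that starts haem synthesis, was at 619 and 485 CPM at day 4 and 131 and 172 CPM at day 8 (log2 change -1.82, SE 0.23, adjusted p 0.00975).

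The members that rose were a receptor and a cofactor. EPOR, the erythropoietin receptor, stood at 5.14 and 5.71 CPM at day 4 and 22.6 and 17.6 CPM at day 8 (log2 change 1.94, SE 0.27, adjusted p 0.0109; 1.48, adjusted p 0.0379 with the GC trend removed). ZFPM1, the GATA1 cofactor FOG1, stood at 8.35 and 5.55 CPM at day 4 and 29.5 and 19.6 CPM at day 8 (log2 change 1.87, SE 0.34, adjusted p 0.0165), and this call is lost with the GC trend removed (0.90, adjusted p 0.181; GC content 68.98%).

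Of 21 haem and iron genes 6 fell and none rose, where 9.79% of all genes fell and 11.9% rose. CPOX, coproporphyrinogen oxidase of the haem path, stood at 116 and 116 CPM at day 4 and 27.6 and 17.5 CPM at day 8 (log2 change -2.31, SE 0.27, adjusted p 0.00963). Both day 8 values lay far below day 4. SLC25A37, mitoferrin-1, was at 82.1 and 50.1 CPM at day 4 and 15.96 and 17.1 CPM at day 8 (log2 change -1.95). FECH, ferrochelatase, was at 74.2 and 96.1 CPM at day 4 and 24.1 and 37.4 CPM at day 8 (log2 change -1.42). The transferrin receptor TFRC did not pass, at 1172 and 914 CPM at day 4 and 1458 and 1020.1 CPM at day 8. TMEM14C as a gene did not pass, at 116 and 111 CPM at day 4 and 138 and 173 CPM at day 8 (adjusted p 0.108). Under the GC alternative 4 of the 21 fell, where 4.00% of all genes did, and FECH did not pass (-1.21, adjusted p 0.0503).

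Megakaryocyte and myeloid genes rose in part. Of 10 megakaryocyte genes 4 rose and none fell (median 1.18); of 6 myeloid genes 4 rose and none fell (median 1.34), where 11.9% of all genes rose. Under the GC alternative 2 and 2 rose, where 4.18% of all genes did. When 1 library was left out the list medians ranged from 0.96 to 1.64 (megakaryocyte) and from 1.15 to 1.55 (myeloid). Fewer genes of each list passed without either day 4 library. ITGA2B, integrin alpha IIb of platelets (CD41), stood at 11.9 and 21.1 CPM at day 4 and 94.1 and 33.4 CPM at day 8 (log2 change 2.00, SE 0.53, adjusted p 0.04303; 1.40, adjusted p 0.178 with the GC trend removed). TEK, an angiopoietin receptor, stood at 0.227 and 0.1295 CPM at day 4 and 2.55 and 2.24 CPM at day 8 (log2 change 3.79, SE 0.63, adjusted p 0.0146). NBEAL2, needed for platelet granules, was at 209.9 and 155 CPM at day 4 and 503 and 403 CPM at day 8 (log2 change 1.36), a call lost with the GC trend removed (0.68, adjusted p 0.133). THBS1, thrombospondin of platelet granules, did not pass, at 0.435 and 2.39 CPM at day 4 and 0.194 and 5.47 CPM at day 8 (log2 change 1.03). Without the library labelled K700E its value was -2.82. ITGB3, the partner of ITGA2B, did not pass, at 0.265 and 0.259 CPM at day 4 and 1.73 and 0.503 CPM at day 8. SPI1, the myeloid factor PU.1, stood at 17.4 and 14.95 CPM at day 4 and 46.4 and 39.4 CPM at day 8 (log2 change 1.46, SE 0.22, adjusted p 0.0127; 0.63, adjusted p 0.153 with the GC trend removed). CSF3R, the G-CSF receptor, was at 6.99 and 3.77 CPM at day 4 and 46.1 and 13.1 CPM at day 8 (log2 change 2.52). LYZ, lysozyme, was at 56.1 and 46.7 CPM at day 4 and 221 and 99.03 CPM at day 8 (log2 change 1.69). With the GC trend removed CSF3R did not pass (2.23, adjusted p 0.0853). In CSF3R, LYZ and ITGA2B the library labelled wild type was the higher by more than 2-fold, so the size of the rise differed between the day 8 libraries while its direction did not. The myeloid list summed to 113 and 103 CPM at day 4 and to 409 and 243 at day 8, with 0 of its 9 genes at 0 at day 4 and 3 and 2 at day 8.

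**Figure D4:**
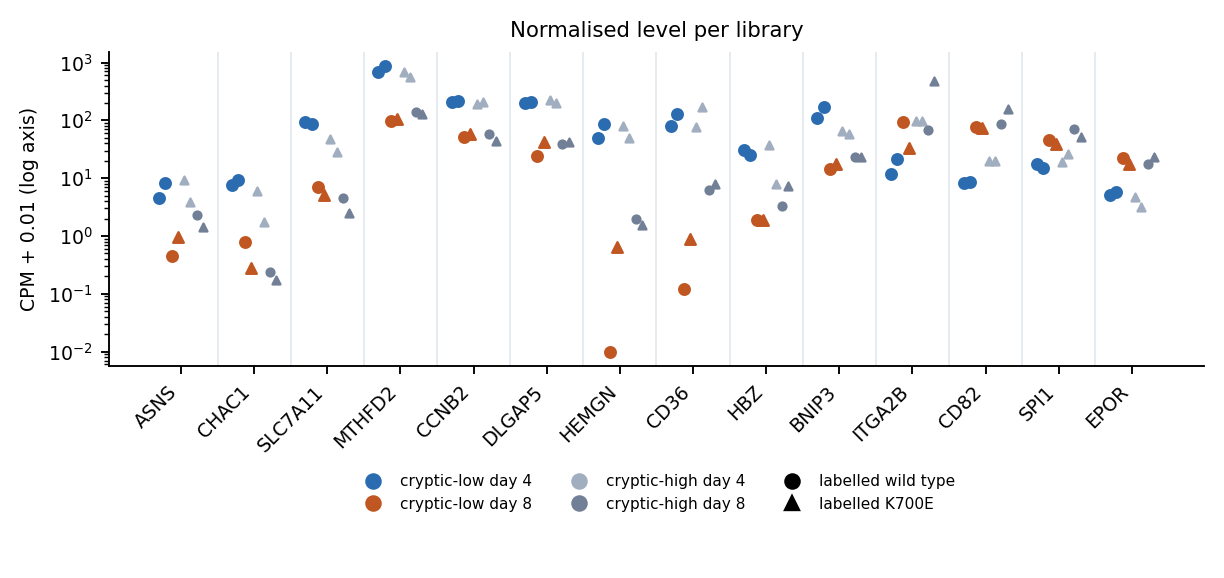
Each point is the normalised level of a gene in one library (CPM + 0.01, log axis); blue and orange are the cryptic-low libraries at day 4 and day 8, light and dark grey the cryptic-high libraries at day 4 and day 8, and triangles are libraries labelled K700E. From ASNS to BNIP3 the orange points lie below the blue ones, and from ITGA2B to EPOR above them, with no overlap.

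The 15 genes named as rising were ranked by log2 change, with 5 CPM needed only in the higher day. That choice favours genes low at day 4, and each had under 3 CPM there. KRT81, a hair keratin, had 0 reads in both day 4 libraries and 9.396 and 0.902 CPM at day 8, at least 230.0-fold higher when 3 reads over the day 4 pair are allowed. Most day 8 reads came from the library labelled wild type, and from the one labelled K700E alone the bound is 34.5-fold. KCNQ1, a potassium channel, stood at 0.0756 CPM and 0 reads at day 4 and 5.899 and 4.53 CPM at day 8 (log2 change 7.16, SE 0.97, adjusted p 0.0109). CEACAM1, a cell adhesion molecule, stood at 0.321 and 0.259 CPM at day 4 and 27.3 and 7.32 CPM at day 8 (log2 change 5.95, SE 0.75, adjusted p 0.00975). SELPLG, the P-selectin ligand of leukocytes, stood at 0.945 and 0.291 CPM at day 4 and 34.7 and 10.1 CPM at day 8 (log2 change 5.25, SE 0.82, adjusted p 0.01302). LAIR1, an inhibitory leukocyte receptor, stood at 0.3401 and 0.372 CPM at day 4 and 11.6 and 7.47 CPM at day 8 (log2 change 4.78, SE 0.43, adjusted p 0.00933). In KCNQ1, CEACAM1, SELPLG and LAIR1 both day 8 libraries lay far above day 4, and the one labelled wild type was higher. PRSS57, a serine protease of neutrophil granules, stood at 1.59 and 1.25 CPM at day 4 and 38.7 and 18.9 CPM at day 8 (log2 change 4.40, SE 0.44, adjusted p 0.00949). ADCYAP1, the neuropeptide PACAP, was at 2.83 and 0.728 CPM at day 4 and 39.8 and 98.4 CPM at day 8 and here the library labelled K700E was the higher. The other genes that the rule named as rising were RAB44, KCP, LRMDA, TFF1, TRAF3IP3, TOX2, ADGRG5 and C4orf48, with log2 changes from 4.26 (C4orf48) to 6.30 (RAB44). In the 4 other libraries the days overlapped in LAIR1, TRAF3IP3 and PRSS57. Of the 15, 11 remained called with the GC trend removed. TFF1, TOX2 and ADGRG5 did not (log2 changes 4.79, 4.07 and 4.12), and neither did KRT81 (adjusted p 0.0554). With limma voom TFF1, TOX2, ADGRG5 and KRT81 did not pass either (adjusted p 0.140, 0.131, 0.153 and 0.109). At day 8 TFF1 stood at 15.6 and 1.82 CPM, TOX2 at 14.1 and 1.76 CPM and ADGRG5 at 14.6 and 1.55 CPM. Most of their day 8 reads thus came from the library labelled wild type.

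Among the 15 genes named for the largest falls, HEMGN, CHAC1, ASNSP1 and HBZ are given above. CD36, a fatty acid receptor of erythroid and myeloid cells, stood at 81.3 and 129 CPM at day 4 and 0.111 and 0.881 CPM at day 8 (log2 change -7.79, SE 0.83, adjusted p 0.00949). FAM178B stood at 109.9 and 50.6 CPM at day 4 and 1.33 and 1.78 CPM at day 8 (log2 change -5.65, SE 0.47, adjusted p 0.00933). PKLR, the pyruvate kinase of red cells and liver, stood at 33.05 and 42.4 CPM at day 4 and 1.14 and 2.89 CPM at day 8 (log2 change -4.20, SE 0.48, adjusted p 0.00963). Each had its 4 values split by day, with CD36 in the library labelled wild type at day 8 the lowest of the 4. A pair of plasma proteins of the liver were also named. AFP, alpha-fetoprotein, was at 12.02 and 4.19 CPM at day 4 and 0.0694 and 0.902 CPM at day 8 (log2 change -4.07). TF, transferrin, was at 6.59 and 14.95 CPM at day 4 and 0.4997 and 0.818 CPM at day 8 (log2 change -3.99). ELF3, an epithelial transcription factor, was at 16.1 and 6.04 CPM at day 4 and 0.222 and 1.07 CPM at day 8 (log2 change -4.09, SE 0.84, adjusted p 0.02303). The epithelial list had 0 genes up and 2 down of 6, where 11.9% of all genes rose and 9.79% fell. The counts were the same with the GC trend removed, where 4.18% of all genes rose and 4.00% fell. The 2 that fell were ELF3 and EPCAM. EPCAM, an epithelial adhesion molecule, was at 99.5 and 112 CPM at day 4 and 6.898 and 20.3 CPM at day 8 (log2 change -2.92, SE 0.49, adjusted p 0.0149). HEPACAM2, SCG3, MTCL1 and GABRG1 were also named, with log2 changes of -5.32, -5.12, -4.64 and -3.84. In the 4 other libraries the days overlapped in TF, ELF3, SCG3 and MTCL1. There TF was at 9.36 and 5.72 CPM at day 4 and 5.85 and 6.47 CPM at day 8. By edgeR the difference between the sets did not pass for TF (adjusted p 0.613) or for ELF3, SCG3 and MTCL1 (each 0.981). In a fit of all 8 libraries ELF3 and SCG3 did not pass (adjusted p 0.0561 and 0.121). Of the 15, 14 remained called with the GC trend removed; AFP did not (log2 change -3.66, adjusted p 0.0931).

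Metallothioneins, small proteins that bind zinc and copper, fell in 3 of 6 measured genes, and also in 3 with the GC trend removed. The shares of all genes that fell were 9.79% and 4.00%. MT2A stood at 95.01 and 67.3 CPM at day 4 and 10.2 and 7.07 CPM at day 8 (log2 change -3.18, SE 0.30, adjusted p 0.00949). MT1X stood at 52.9 and 32.6 CPM at day 4 and 5.14 and 5.68 CPM at day 8 (log2 change -2.93, SE 0.31, adjusted p 0.00949). MT1G stood at 9.996 and 4.81 CPM at day 4, at 0 reads in the library labelled wild type at day 8 and at 0.147 CPM in the other (log2 change -6.77, SE 1.13, adjusted p 0.0148). The copies are near-identical and reads may be split between them. In the 4 other libraries MT1X went the other way, at 1.59 and 1.57 CPM at day 4 and 10.01 and 7.54 CPM at day 8. The difference of the day change between the 2 sets of libraries was -5.45 on the log2 scale (SE 0.44, adjusted p 0.0247 by edgeR). MT1X was the only one of 14902 genes (0.00671%) to pass that test, with 707 at an unadjusted p under 0.05. For MT2A the difference had an adjusted p of 0.181. DESeq2 passed 61 genes. The MT1X call was lost without any one of the 4 day 4 libraries, or of the day 8 libraries labelled wild type replicate 1 or K700E replicate 1, with adjusted p from 0.0542 to 0.197 and differences from -5.71 to -5.01.

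For the other changes, the 4 cryptic-high libraries gave a comparison of day 8 with day 4 in separate samples. The same TMEM14C share sorted them, as the libraries that the rule left out. They are the K700E day 4 libraries and the day 8 libraries labelled wild type replicate 2 and K700E replicate 2. Of 1617 genes called higher and tested there, 1438 had both day 8 libraries above both day 4 libraries, where 33.9% of all 13386 genes did, and 10 lay the opposite way. Of 1336 called lower, 1185 lay below, where 33.6% of all genes did, and 11 lay opposite. The slope with GC content is present in both sets of libraries, and its part in these counts was not tested. By edgeR alone in those libraries, 1137 of 14224 genes (7.99%) were higher and 1120 (7.87%) lower. The mitosis list fell in 23 of 28 there (median -1.46), the stress list in 8 of 21 and the erythroid list in 8 of 32. The megakaryocyte list rose there in 1 of 10 (median 0.46) and the myeloid list in 1 of 6 (median 0.56). No gene of these 2 lists passed the test of the difference between the sets. With the GC trend removed no gene passed in those libraries (0 of 14224 by edgeR, 3277 at an unadjusted p under 0.05).

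For ribosomal protein genes the counts of calls depended on the day 8 library. Of 74 cytosolic ones none rose and 5 fell (median -0.10; 3 fell with the GC trend removed), against 11.9% and 9.79% of all genes. Without the library labelled K700E, 44 fell and none rose (median -0.47), where 21.9% of all genes rose and 25.6% fell. Without the library labelled wild type, 16 rose and 7 fell (median 0.12), where 21.2% of all genes rose and 18.9% fell. In those fits day 8 is 1 library, assumed to vary as the day 4 pair does, so no direction is drawn for the group. Of 30 SR protein and hnRNP genes none rose and 3 fell (1 with the GC trend removed). Of 23 genes of the U2 snRNP and the 3' splice site 3 rose and 1 fell (1 and 1 with the GC trend removed). With that trend removed 4.18% of all genes rose and 4.00% fell.

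Junction shares were compared at shared sites: the acceptors reached from one donor, and the donors joined to one acceptor. By edgeR 0 of 63231 junctions passed among acceptors (0%) at an adjusted p under 0.05 with a change of 5 points or more, and 0 of 61054 among donors (0%). On simulated data with the spread of these 4 libraries this test recovered few of the junctions made to change, so 0 calls do not show a lack of change. At an unadjusted p under 0.05 there were 3853 (6.09%) and 4126 (6.76%). limma's diffSplice passed 55 and 154. Without the library labelled wild type day 8 replicate 1 edgeR passed 24 and 72, and without the one labelled K700E 4996 and 5294, where the lone day 8 library is the one with few rare junctions. Both day 8 libraries lay to one side of both day 4 libraries, with a mean change of 5 points or more, at 14161 acceptor and 14653 donor junctions (23.2% of both kinds). The junctions below were filled in by the smallest unadjusted p among these, up to 10 in each direction and 1 per gene for each kind of site. They are not calls.

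Several rising junctions skip or include a coding exon. At ABI1, an actin regulator of the WAVE complex, the junction chr10:26751784-26765217, minus strand, leaves out an exon of 177 nt; its share of the acceptor's reads was 19.7% and 20.8% at day 4 and 72.6% and 59.1% at day 8 (330 to 851 reads at the acceptor; unadjusted p 7.67e-05, adjusted p 0.204). At PPIP5K2, an inositol pyrophosphate kinase, the junction into an exon of 174 nt took 6.22% and 5.59% at day 4 and 32.4% and 19.6% at day 8 (chr5:103180189-103183233, plus strand; 466 to 1640 reads). At PICALM, a clathrin adaptor, the junction into an exon of 24 nt took 5.66% and 3.59% at day 4 and 29.5% and 10.4% at day 8 (chr11:85978094-85981128, minus strand; 1884 to 5352 reads). All 3 exons are a whole number of codons long. The day 8 libraries were both higher, and in each the library labelled wild type was the higher. At BLOC1S6, of lysosome-related organelle biogenesis, the junction past an exon of 142 nt, not a whole number of codons, took 6.796% and 4.12% at day 4 and 34.8% and 29.9% at day 8. At RBCK1, a subunit of the linear ubiquitin ligase, an annotated acceptor took 18.3% and 13.7% at day 4 and 56.1% and 55.6% at day 8 (378 to 1122 reads), and the day 8 pair nearly coincide. At ST7 the share was 9.54% and 10.9% at day 4 and 52.1% and 37.6% at day 8. At SAT1, the polyamine acetyltransferase, the junction into an exon of 110 nt took 8.57% and 8.63% at day 4 and 38.7% and 21.1% at day 8.

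Among falling junctions, at VPS26A, of the retromer, the junction past an exon of 76 nt took 19.2% and 19.8% at day 4 and 3.39% and 3.28% at day 8 (chr10:69133048-69157006, plus strand; 976 to 1597 reads). At CHEK1, the replication checkpoint kinase, an unannotated junction past an exon of 96 nt took 18.5% and 15.6% at day 4 and 1.94% and 1.75% at day 8 (chr11:125635534-125643791, plus strand; 400 to 1034 reads). At HNRNPDL, an RNA-binding protein, the junction into an exon of 105 nt took 28.4% and 30.2% at day 4 and 5.39% and 9.47% at day 8. At IDH1, isocitrate dehydrogenase, one of the donors joined to a shared acceptor took 38.9% and 46.6% at day 4 and 3.77% and 13.2% at day 8 (456 to 1837 reads). At ATXN2L the donor took 36.6% and 38.01% at day 4 and 4.85% and 11.2% at day 8 (652 to 1671 reads). In IDH1 and ATXN2L the library labelled wild type had the lowest share, and the library labelled K700E was also below both day 4 libraries. The exons that are left out or taken in are shown because the shares turn on them, in GENCODE release 29 transcripts on GRCh38, lower case throughout as no part is marked:
ABI1 (chr10:26759062-26759238, minus strand): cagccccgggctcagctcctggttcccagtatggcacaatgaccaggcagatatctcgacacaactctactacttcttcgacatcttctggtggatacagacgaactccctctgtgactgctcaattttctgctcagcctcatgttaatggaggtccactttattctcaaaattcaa
PPIP5K2 (chr5:103183234-103183407, plus strand): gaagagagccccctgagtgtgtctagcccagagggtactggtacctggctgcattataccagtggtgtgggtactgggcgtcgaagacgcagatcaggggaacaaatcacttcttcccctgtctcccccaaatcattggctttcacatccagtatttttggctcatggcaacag
PICALM (chr11:85978070-85978093, minus strand): aatggcatgcattttccacaatac
BLOC1S6 (chr15:45592135-45592276, plus strand): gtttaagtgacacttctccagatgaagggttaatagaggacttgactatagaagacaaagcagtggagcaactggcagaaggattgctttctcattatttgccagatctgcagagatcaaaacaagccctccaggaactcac
VPS26A (chr10:69155812-69155887, plus strand): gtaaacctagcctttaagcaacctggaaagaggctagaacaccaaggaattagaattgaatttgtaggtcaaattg
CHEK1 (chr11:125637449-125637544, plus strand): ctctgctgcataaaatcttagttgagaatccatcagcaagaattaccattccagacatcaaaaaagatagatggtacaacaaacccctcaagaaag
In the cryptic-high libraries the ABI1 skip stood at 33.8% and 26.05% at day 4 and 50.6% and 56.4% at day 8 and the ATXN2L donor at 34.7% and 35.8% at day 4 and 11.4% and 14.4% at day 8. For VPS26A the values there were 10.8% and 5.18% at day 4 and 3.43% and 2.18% at day 8, so the K700E day 4 libraries already lay below the wild type day 4 ones. The same held for CHEK1 (5.20% and 2.21%, then 0.25% and 3.30%) and HNRNPDL (13.7% and 3.90%, then 5.70% and 6.13%). In CHEK1 and HNRNPDL the days overlapped there. Of 20 named acceptor junctions 17, and of 20 donor junctions 18, moved without overlap in the same direction there, and none in the opposite direction. As 4 junctions are named under both kinds, these are 36 distinct junctions, 31 of them in the same direction. Of all junctions without overlap in the cryptic-low libraries and with 5 points of change, 46.0% did so. The difference between the sets was not tested for shares.

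**Figure D5:**
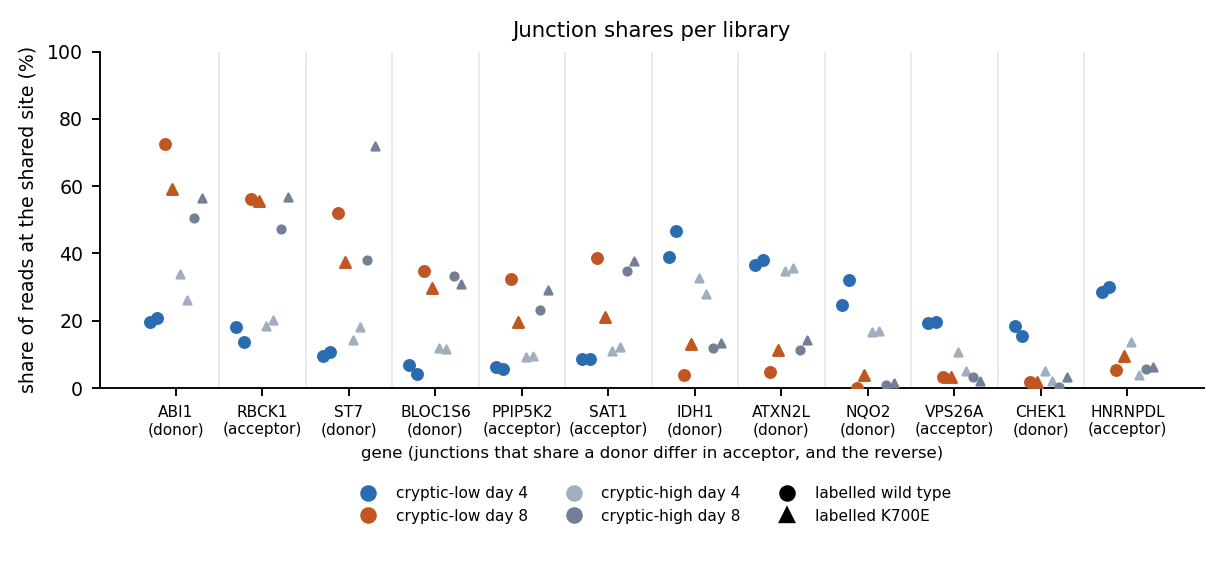
Each point is the share of a junction among reads at its shared site in one library (y axis, %), for 12 of the named junctions; colours and symbols mark day, cryptic use and label as in the key. Shares at ABI1 to SAT1 are higher in the orange points (cryptic-low, day 8) than in the blue ones (cryptic-low, day 4), and those at IDH1 to HNRNPDL are lower.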

How the data were processed

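RNA from K562 cells was sequenced as strand-specific libraries, and the 4 libraries that the TMEM14C rule picks were compared by day. The authors deposited, for each library, a list of splice junctions with counts of uniquely mapped and multi-mapped reads, and an aligner log. Reads were trimmed with cutadapt and aligned to hg38 with STAR per the submitters' processing notes; the version was 2.7.0e with GENCODE 29 junctions in the index, per the file headers. Only spliced reads enter such counts, so genes without introns are not measured.

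Unique junction counts were summed over the annotated introns of each gene. Genes were tested with edgeR 4.0.16 (TMM, filterByExpr, quasi-likelihood test, Benjamini-Hochberg adjustment, called at an adjusted p under 0.05). Junction shares used edgeR's diffSpliceDGE on junctions with 5 reads in at least 2 libraries at sites with a mean of 20 reads, called with 5 points of change. Both procedures were tested on simulated data. DESeq2 1.42.0 and limma 3.58.1 were alternatives, with other filters, reads, introns and left-out libraries. The members, the 31 gene lists and the tests were chosen with earlier results of these data known. Named genes were the 15 largest called changes in each direction that reached 5 CPM without overlap between days, and from each list members with the largest change; a few members that did not pass were named after their values were seen. Named junctions were the 10 in each direction with the smallest unadjusted p, since none was called. Promoters are from RefSeq (GRCh38.p14).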

Additional observations from a re-analysis of the deposited data

Results flagged for a closer look

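The change of MT1X, a metallothionein, differed between the 2 sets of libraries. From day 4 to day 8 it fell in the 4 cryptic-low libraries, by 2.93 on the log2 scale, and had a change of 2.47 in the 4 cryptic-high libraries, a difference of -5.45 (SE 0.44, adjusted p 0.0247, edgeR's quasi-likelihood test). The call was lost when any one of 6 of the 8 libraries was left out, with adjusted p from 0.0542 to 0.197. MT1X was high in the wild type day 4 libraries alone, at 52.9 and 32.6 CPM, and stood between 1.57 and 10.01 CPM in the 6 others. Reads of near-identical metallothionein copies may be split.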

How the results depend on the processing

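With 2 libraries a day that carry 2 labels at day 8, counts of calls depended on single libraries. Leaving out 1 of the 4 libraries leaves 1 in a day, and the spread then comes from the other day's pair alone. By edgeR the number of genes called, 2988, became 4668 with no filter on low counts and 1129 with the GC trend removed, an alternative chosen after seeing the data, and ranged from 530 to 6905 when 1 library was left out. DESeq2, RLE factors, voom, other introns or reads and a fit of 8 libraries stayed within 1.5 times. limma called 55 acceptor and 154 donor junctions where edgeR called none, and leaving out 1 library gave 0 to 4996 and 0 to 5294. DESeq2 called 61 genes for the difference between the sets of libraries, and leaving out 1 library gave 0 to 2. Of 99 genes named, 17 lost their call with the GC trend removed, 10 without wild type day 4 replicate 1 and 19 without replicate 2; the cause was not tested. Genes that changed sign had not passed: with the GC trend removed GATA1 had -0.45 and PTPRC 0.11; with voom THBS1 had -0.44 and UBE2C -0.38. When 1 library was left out, KLF1 ranged from -0.42 to 0.29, PTPRC from -0.88 to 0.045, THBS1 from -2.82 to 2.72 and UBE2C from -1.56 to 1.17. No paired analysis was possible because both day 8 libraries have replicate number 1. Reads per site limit the shares.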

Other observations

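Among enzymes of cholesterol synthesis the median change depended on the day 8 library. Of 30 measured genes of cholesterol and fatty acid synthesis 7 fell and 2 rose, with a median log2 change of -0.40. Of all genes 9.79% fell and 11.9% rose. With the GC trend removed 2 fell and none rose, where 4.00% of all genes fell and 4.18% rose. Without the day 8 library labelled wild type the list median was -0.01, and without the one labelled K700E it was -0.91. MSMO1, a sterol methyl oxidase, stood at 88.7 and 71.9 CPM at day 4 and 3.91 and 11.2 CPM at day 8 (log2 change -3.37, SE 0.50, adjusted p 0.0123). HMGCS1, which makes HMG-CoA, stood at 369.7 and 294 CPM at day 4 and 52.9 and 127 CPM at day 8 (log2 change -1.84, SE 0.41, adjusted p 0.0275), a call lost with the GC trend removed (-1.46, adjusted p 0.0808). Both day 8 libraries were low in each. SREBF1, which encodes a regulator of lipid synthesis, rose, from 56.4 and 37.01 CPM to 121 and 125 CPM (log2 change 1.44; 0.73, adjusted p 0.0933 with the GC trend removed).

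Of 15 measured p53 targets 4 rose and 2 fell, and with the GC trend removed 2 rose and 2 fell. Of all genes 11.9% rose and 9.79% fell, and 4.18% and 4.00% with the GC trend removed. CDKN1A, the cell cycle inhibitor p21, stood at 3.16 and 4.09 CPM at day 4 and 16.5 and 9.48 CPM at day 8 (log2 change 1.89, SE 0.37, adjusted p 0.0206). The CDKN1A call was lost with the GC trend removed (1.44, adjusted p 0.0760) and without either day 4 library (adjusted p 0.0837 and 0.0592). TNFRSF10B, a TRAIL death receptor, stood at 144 and 156 CPM at day 4 and 28.3 and 48.2 CPM at day 8 (log2 change -1.92, SE 0.28, adjusted p 0.0119). In the interferon response list 4 of 22 rose and 1 fell, and with the GC trend removed 3 rose and none fell. IFITM3, an antiviral membrane protein, stood at 0.699 and 0.939 CPM at day 4 and 3.79 and 8.35 CPM at day 8 (log2 change 2.93, SE 0.52, adjusted p 0.0162). Among 15 host genes of small nucleolar RNAs 4 fell and none rose, and 2 fell with the GC trend removed. Without the day 8 library labelled wild type their median log2 change was -0.23, and without the one labelled K700E it was -1.29. SNHG1, one of them, stood at 488 and 538 CPM at day 4 and 71.1 and 162 CPM at day 8 (log2 change -2.10, SE 0.38, adjusted p 0.01704). The day 8 libraries lay on one side of the day 4 libraries in each of these genes.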
